A study of Mus musculus with 30 samples.

Results

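Regions that carry acetylation of lysine 27 of histone H3 (H3K27ac) were set against regions that carry acetylation of lysine 56 of the same histone (H3K56ac) in wild-type mouse B cells. Each mark had 2 peak lists, which were merged into 32644 regions. A region is H3K27ac-only when both H3K27ac lists and neither H3K56ac list have a peak there, H3K56ac-only in the reverse case, and shared when all 4 lists have one. By this rule 9689 regions (29.7%) were H3K27ac-only, 249 (0.763%) were H3K56ac-only and 12081 (37.0%) were shared. The other 10625 regions had a peak in 1 list of a mark but not in the second, and belong to no class. The 4 lists come from a series of 30 samples on the loss of Crebbp, the gene of the acetyltransferase CBP, in lymphoid cells of C57BL/6 mice.

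The B cells were B220+ spleen cells isolated by flow sorting from mice of the genotype CBPfl/fl:Mx-Cre-. They carry Crebbp alleles flanked by loxP sites but no Cre, so Crebbp is intact, and the H3K27ac and H3K56ac samples have the same genotype, strain and sort. Lists not used to form the classes came from the same kind of B cell (H3K18ac, 2 lists, and CBP, 1 list), from bulk tissue of lymphoproliferative disease (LPD) of Crebbp-/- (CBPfl/fl:Mx-Cre+) mice, and from Lin- IL7ra+ lymphoid progenitors of Crebbp-/- and wild-type mice. Mx-Cre is driven by an interferon-inducible promoter and is not restricted to B cells, and the LPD samples are unsorted. The labels used here give no age, and nothing says that the 2 replicates of a mark came from separate mice, so the spread between them may be technical.

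CBP and its relative p300 acetylate histones at enhancers and promoters, and H3K27ac is the usual mark of both kinds of element when they are active. Lysine 56 lies in the core of the nucleosome, where DNA enters and leaves, and not in the flexible tail that holds lysine 27. In budding yeast this lysine is acetylated on newly made histone H3 by Rtt109 with the chaperone Asf1, and in human cells CBP and p300 have been reported to acetylate it. In B cells, long stretches of H3K27ac surround genes of cell identity, such as those of the B cell receptor and of MHC class II.

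Promoter sequences of the 3 classes are shown first, because the CG content of promoters was compared between the classes. For each class these are the 300-base windows (250 bases before and 50 after the start, RefSeq, GRCm38.p6, which is mm10) inside the 2 widest regions that hold a whole window. The windows were picked after the classes were known. Each is written 5′ to 3′ on the gene's strand, with every CG pair in capitals.
Spib (H3K27ac-only, chr7:44532022-44532321, minus strand): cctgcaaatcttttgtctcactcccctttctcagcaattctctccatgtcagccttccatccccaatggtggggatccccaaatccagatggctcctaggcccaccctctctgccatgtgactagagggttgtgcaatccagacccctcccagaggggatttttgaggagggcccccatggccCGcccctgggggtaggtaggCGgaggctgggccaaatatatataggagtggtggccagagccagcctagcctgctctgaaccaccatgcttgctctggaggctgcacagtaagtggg
Cybb (H3K27ac-only, chrX:9469275-9469574, minus strand): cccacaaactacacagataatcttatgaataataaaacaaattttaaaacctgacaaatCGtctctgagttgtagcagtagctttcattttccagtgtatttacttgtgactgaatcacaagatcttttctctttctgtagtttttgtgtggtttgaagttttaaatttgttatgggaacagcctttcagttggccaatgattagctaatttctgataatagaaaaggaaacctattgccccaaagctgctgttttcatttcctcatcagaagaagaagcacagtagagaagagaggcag
Fndc11 (H3K56ac-only, chr2:181212342-181212641, plus strand): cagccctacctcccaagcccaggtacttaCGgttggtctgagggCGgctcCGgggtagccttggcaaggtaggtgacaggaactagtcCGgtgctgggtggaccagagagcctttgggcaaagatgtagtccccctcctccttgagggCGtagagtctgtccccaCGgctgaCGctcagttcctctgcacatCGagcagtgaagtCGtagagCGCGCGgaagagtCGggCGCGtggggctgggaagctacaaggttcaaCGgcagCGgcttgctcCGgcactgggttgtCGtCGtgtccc
Gdpd1 (H3K56ac-only, chr11:87074088-87074387, minus strand): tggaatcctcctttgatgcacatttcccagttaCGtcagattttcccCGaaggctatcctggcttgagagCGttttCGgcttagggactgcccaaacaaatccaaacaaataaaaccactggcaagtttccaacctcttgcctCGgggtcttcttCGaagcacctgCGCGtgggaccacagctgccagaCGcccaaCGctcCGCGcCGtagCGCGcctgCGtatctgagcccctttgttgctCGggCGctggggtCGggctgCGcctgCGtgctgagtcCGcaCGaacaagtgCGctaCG
H2-Aa (shared, chr17:34287774-34288073, minus strand): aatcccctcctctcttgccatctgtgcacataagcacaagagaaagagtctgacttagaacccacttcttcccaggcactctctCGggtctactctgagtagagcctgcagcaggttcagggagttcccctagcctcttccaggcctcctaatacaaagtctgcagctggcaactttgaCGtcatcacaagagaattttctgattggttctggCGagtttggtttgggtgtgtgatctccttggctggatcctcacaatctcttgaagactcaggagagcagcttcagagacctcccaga
Plekhg2 (shared, chr7:28372613-28372912, minus strand): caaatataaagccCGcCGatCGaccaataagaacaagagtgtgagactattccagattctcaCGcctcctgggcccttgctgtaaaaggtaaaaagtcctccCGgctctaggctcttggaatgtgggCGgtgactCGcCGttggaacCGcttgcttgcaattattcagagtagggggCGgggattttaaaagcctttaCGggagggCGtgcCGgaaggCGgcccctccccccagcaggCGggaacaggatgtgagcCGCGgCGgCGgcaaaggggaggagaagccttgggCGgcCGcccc
Spib encodes a transcription factor of the ETS family used in B cells, and its window held 2 CG pairs. Cybb encodes the large subunit of the phagocyte NADPH oxidase, and its window held 1. Fndc11, a fibronectin type III domain gene, and Gdpd1, a lysophospholipase D gene, held 20 and 25. H2-Aa encodes an MHC class II chain, and its window held 3 CG pairs and the cAMP response element TGACGTCA. Plekhg2 encodes a guanine nucleotide exchange factor, and its window held 21. The examples thus span CG-poor and CG-rich promoters in the shared class too, and the class medians are given further on. Both H3K27ac-only examples were poorer in CG than most of their class, whose lower quartile was 9 CG pairs. The median was 18 in H3K27ac-only and 19 in H3K56ac-only windows, so the examples do not stand for a difference between these classes.

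H3K27ac covered more of the genome than H3K56ac and did so in longer peaks. The H3K27ac lists held 30523 and 30198 peaks, against 20392 and 18763 in the H3K56ac lists. Mean peak number was 30360.5 ± 229.8 for H3K27ac and 19577.5 ± 1152 for H3K56ac (SD, n = 2 each), a log2 difference of 0.63 (exact two-sided permutation test, p = 0.333). The groups did not overlap, and 0.333 is the smallest p that 2 lists against 2 can give. Covered length was 27.1 and 26.4 Mb for H3K27ac and 10.6 and 9.44 Mb for H3K56ac, a log2 difference of 1.42 (exact permutation test, p = 0.333). The median peak was 581 and 571 bp wide for H3K27ac and 417 and 407 bp wide for H3K56ac. Differences between the marks were many times the spread between the lists of a mark in length and width. The files give no read depth, so unequal depth or antibody strength and a narrower mark cannot be told apart in these numbers.

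Nearly all H3K56ac lay inside H3K27ac. Of the peaks in an H3K56ac list, 93.7% to 95.9% overlapped a peak of an H3K27ac list, while 44.6% to 48.6% of H3K27ac peaks overlapped an H3K56ac peak. Of the 24692 regions found in both H3K27ac lists, 48.9% were shared and 39.2% were H3K27ac-only. Of the 12529 regions found in both H3K56ac lists, 96.4% were shared and 1.99% were H3K56ac-only. Between lists, the covered sequence in common was 80.7% of the union for the H3K27ac pair, 65.0% for the H3K56ac pair and 32.8% to 36.4% for pairs of unlike marks. The share between unlike marks is capped by their unequal covered length, and 93.4% to 95.6% of H3K56ac sequence lay within an H3K27ac list. The lower share between marks therefore cannot tell a difference in place from a difference in length.

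Class sizes changed with the length of the lists. With each list shortened to the 18763 widest peaks, 3958 regions were H3K27ac-only, 1101 were H3K56ac-only and 10456 were shared. H3K56ac-only regions numbered 390 without H3K27ac replicate 1, 601 without H3K56ac replicate 1 and 943 without H3K56ac replicate 2, and H3K27ac-only regions numbered 14702 without H3K27ac replicate 2.

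Shared regions were the wide ones and lay mostly at gene ends, whereas H3K27ac-only regions were narrow and lay mostly inside genes. The median width was 526 bp (quartiles 380 and 804) for H3K27ac-only, 388 bp (306 and 506) for H3K56ac-only and 1171 bp (747 and 1837) for shared regions. The lists that form the classes also give the widths, so the order of the widths is a description only. Of H3K27ac-only regions 17.7% were no more than 1 kb from the start or end of a protein-coding gene (95% exact binomial interval 17.0 to 18.5). Of H3K56ac-only regions 47.0% did (40.7 to 53.4), and of shared regions 62.8% did (61.9 to 63.7), beside 36.0% of all merged regions. These intervals cover counting error only. Regions inside a gene made up 53.0% of H3K27ac-only, 29.7% of H3K56ac-only and 22.4% of shared regions. Regions between genes and over 50 kb from a gene end made up 6.40%, 8.84% and 3.62% in the same order.

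**Figure D1:**
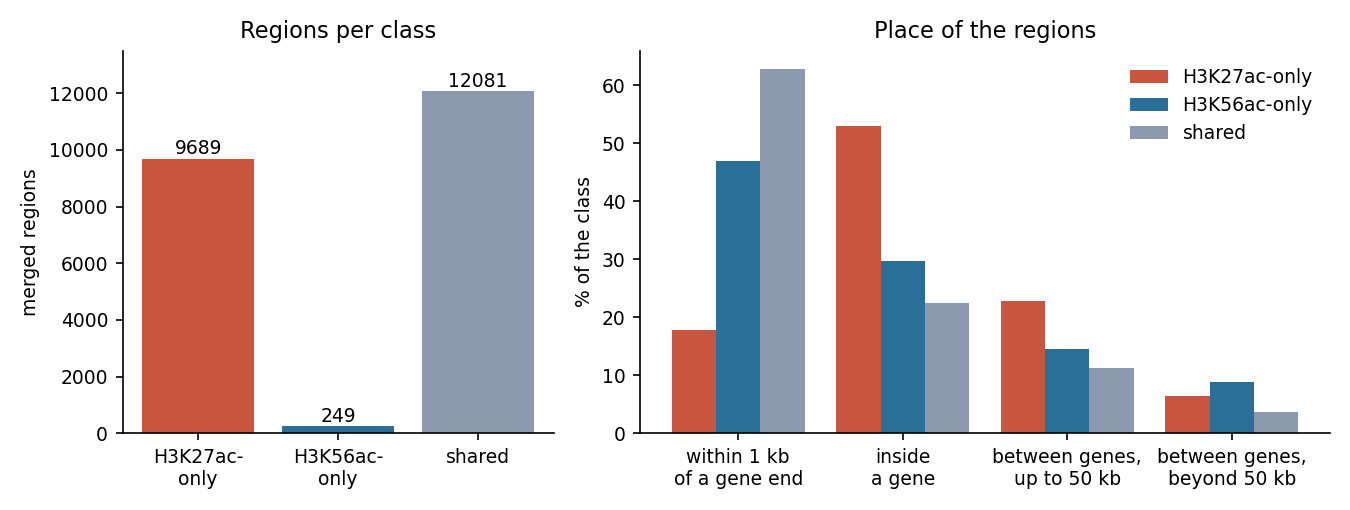
Number of merged regions in each class (left, count) and share of each class by place relative to protein-coding genes (right, % of the class). The 9689 H3K27ac-only regions lay mostly inside genes (53.0%), whereas 47.0% of the 249 H3K56ac-only and 62.8% of the 12081 shared regions were within 1 kb of a gene end.

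The same contrast stood in the single lists. Of H3K27ac peaks 37.0% and 37.3% lay within 1 kb of a gene end, against 51.1% and 53.0% of H3K56ac peaks, a mean difference of -15.0 percentage points (exact permutation test, p = 0.333). For gene starts alone the shares were 33.0% and 33.4% for H3K27ac and 48.3% and 50.01% for H3K56ac. The shares at starts were thus not far below those at gene ends. Peaks at starts are not a subset of those at gene ends, since a gene can have several starts and some genes have none in the table. Among the classes, 14.4% of H3K27ac-only, 47.7% of H3K56ac-only and 57.3% of shared regions lay within 1 kb of a start.

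Regions in both H3K27ac lists and 1 H3K56ac list had values between those of H3K27ac-only and shared regions. The 1896 regions in both H3K27ac lists and H3K56ac replicate 1 had a median of 648 bp of H3K27ac and lay at gene ends in 34.9% of cases, and the 1026 with H3K56ac replicate 2 had 626.5 bp and 31.7%. H3K27ac-only regions had a median H3K27ac length of 443.5 bp and shared regions of 1084.5 bp. Regions in 1 H3K27ac list alone, 3387 for replicate 1 and 2733 for replicate 2, lay below all of these. Their median H3K27ac length, as the mean of both lists, was 125.5 and 124.5 bp, and 14.3% and 11.8% were at gene ends. On the H3K56ac side, 132 regions in both H3K56ac lists had H3K27ac in replicate 1 alone and 67 in replicate 2 alone, with medians of 310 and 304.5 bp of H3K56ac. H3K56ac-only regions had 307 bp and shared regions 607 bp. H3K56ac-only regions were hence about as wide in H3K56ac as the regions that missed the class through 1 H3K27ac list.

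Because width and place go together, H3K56ac was counted at H3K27ac regions of like H3K27ac length. In every length bin the share with H3K56ac was higher at gene ends than away from them, in both H3K56ac lists. Among regions with over 400 and up to 600 bp of H3K27ac, H3K56ac replicates 1 and 2 had a peak at 73.0% and 69.2% of gene-end regions, against 24.4% and 20.9% of regions away from gene ends. Among regions of over 1000 and up to 2000 bp the shares were 94.3% and 92.4% at gene ends and 62.7% and 58.3% away. Above 2000 bp they were 96.0% and 95.7% at gene ends and 88.0% and 84.5% away. The gap between the places was thus narrower above 2000 bp than in the bins of intermediate length. The bins were chosen after the data were seen.

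**Figure D2:**
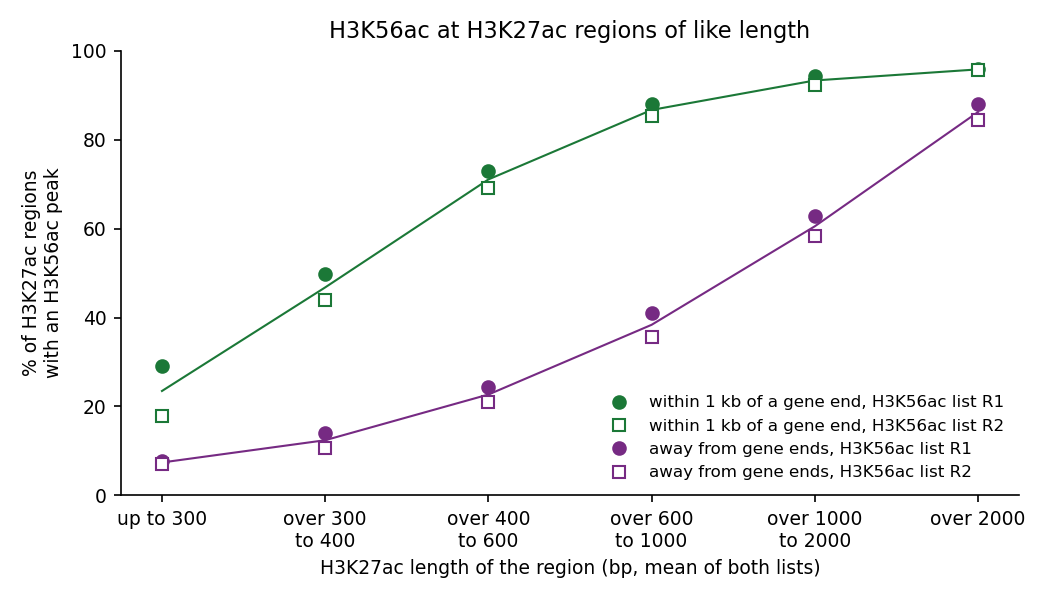
Share of regions in both H3K27ac lists that have an H3K56ac peak (%, y axis) by the H3K27ac length of the region (bp, x axis). Circles and squares are H3K56ac replicates 1 and 2 and lines are their mean. The curve of gene-end regions lies above that of other regions in all bins, at 73.0% and 69.2% against 24.4% and 20.9% for over 400 to 600 bp.

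Within shared regions, too, H3K56ac filled more of the H3K27ac stretch at gene ends. Its summed length was 63.2% and 59.9% of that of H3K27ac at the 7588 shared regions at gene ends, against 43.2% and 40.3% at the 4493 shared regions elsewhere (replicates 1 and 2). Summed over the peaks of a region, H3K56ac was longer than H3K27ac in 10.9% and 9.19% of gene-end regions and in 6.41% and 5.30% of the others. A shared region could hold several H3K56ac peaks: 28.7% and 28.2% of shared regions held at least 2.

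Around gene starts both marks were highest just downstream of the start, and H3K56ac was the lower and narrower of the pair. At 21263 starts of 17492 genes, coverage was highest 200 and 150 bp downstream of the start for H3K27ac replicates 1 and 2, at 38.9% and 38.3% of starts. For H3K56ac it was highest 200 bp downstream in both lists, at 32.0% and 29.96%. At the start itself H3K27ac covered 31.3% and 30.4% of starts and H3K56ac 18.99% and 16.6%. Both marks thus dipped at or just before the start, where promoters usually lack a nucleosome. H3K56ac coverage amounted to 82.3% and 78.2% of H3K27ac coverage 200 bp downstream, 62.4% and 58.0% of it 200 bp upstream and 23.9% and 20.2% of it 2000 bp downstream. H3K56ac was hence closest to H3K27ac just inside the transcribed side.

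**Figure D3:**
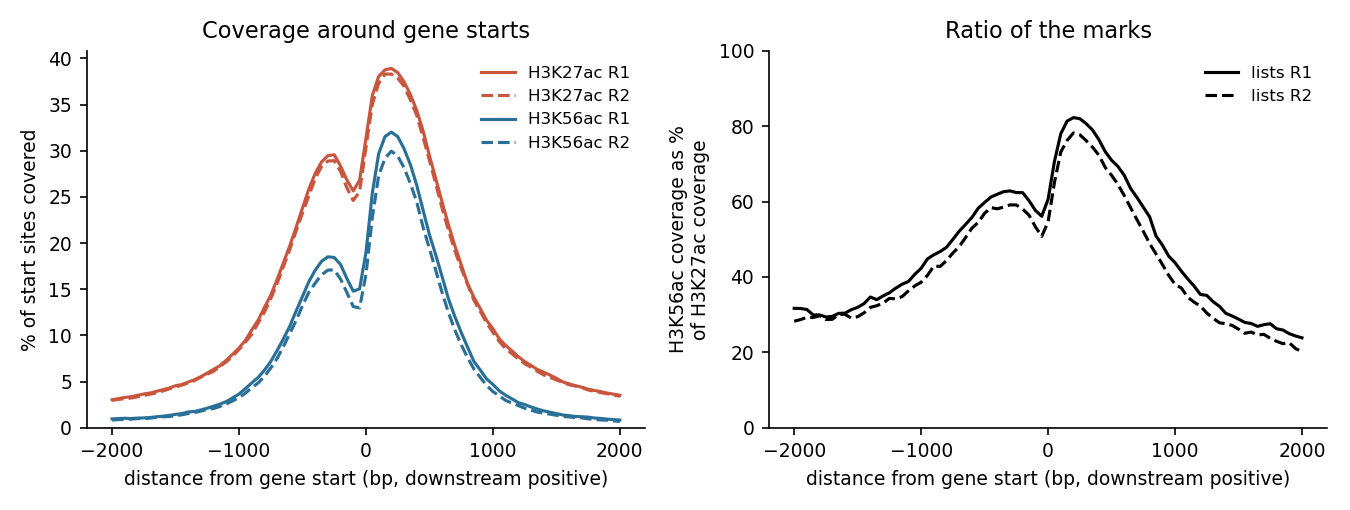
Share of gene starts covered by a peak (%, left) and H3K56ac coverage as a percentage of H3K27ac coverage (right) against distance from the start (bp). Solid and dashed lines are replicates 1 and 2; H3K27ac reaches 38.9% and 38.3%, H3K56ac 32.0% and 29.96%, and the ratio peaks near 200 bp downstream at 82.3% and 78.2%.

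Of the 17492 genes with a start in the table, 612 (3.50%) had an H3K27ac-only start, 76 (0.434%) an H3K56ac-only start and 6608 (37.8%) a shared start. Another 9346 (53.4%) had no region at the start, and 850 (4.86%) had a region of no class there. Of the 7220 genes with a shared or H3K27ac-only start, 91.5% had a shared one. Counted by promoter window and single H3K56ac list, as given below, the shares with H3K56ac were lower. Promoter windows held a median of 18 CG pairs in H3K27ac-only regions (550 windows), 19 in H3K56ac-only regions (60 windows) and 23 in shared regions (6715 windows), beside 13 over all 21263 windows and 5 in the 12378 windows with no region. Among windows with both H3K27ac lists, H3K56ac replicates 1 and 2 were found at 50.4% and 47.1% of those with 0 to 5 CG pairs and at 84.3% and 79.3% of those with 31 or more. In both lists the share was higher with each step up in CG number. The ETS motif CCGGAAG, searched on both strands, stood in 11.6% of H3K27ac-only, 18.3% of H3K56ac-only and 24.8% of shared windows, beside 11.6% of all windows. The cAMP response element TGACGTCA stood in 1.82%, 1.67% and 4.57%, beside 2.23% of all windows, and the GC box GGGCGG in 61.1%, 70.0% and 67.5%, beside 46.2%. TATAAA stood in 8.55%, 8.33% and 5.70%, beside 12.6% of all windows. These are matches of letters and not sites, and the H3K56ac-only shares rest on 60 windows. The ETS, cAMP response element, GC box and NRF1 strings contain CG, and shared windows held more CG pairs. Whether CG number accounts for the shares of these strings was not tested.

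H3K27ac-only regions lay near H3K56ac, while H3K56ac-only regions were more isolated. The median distance to the nearest peak of the mark a region lacked was 3.754 kb for H3K27ac-only and 10.9 kb for H3K56ac-only regions. Within 1 kb of such a peak lay 26.8% of H3K27ac-only and 26.5% of H3K56ac-only regions, and beyond 10 kb lay 31.3% and 52.6%. Of H3K27ac-only regions at gene ends, 49.9% had H3K56ac within 1 kb. Many H3K27ac-only regions at gene ends thus stood beside a peak that holds both marks or H3K56ac alone.

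A further acetylation, H3K18ac, which played no part in forming the classes, went with the shared regions. H3K18ac replicates 1 and 2 of the same B cells had a peak at 25.4% and 27.6% of H3K27ac-only, 26.5% and 33.3% of H3K56ac-only and 89.9% and 91.0% of shared regions. At regions with over 400 and up to 600 bp of H3K27ac the shares were 26.2% and 27.9% in H3K27ac-only and 76.9% and 77.7% in shared regions. At regions above 2000 bp they were 62.7% and 66.9% in H3K27ac-only and 98.6% and 98.7% in shared regions. The difference between the classes was thus present at like H3K27ac length and exceeded the spread between the H3K18ac lists in each bin. The lists hold no peak heights, so signal strength was not compared.

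The list of CBP peaks, 1000 in all, had 104 peaks in H3K27ac-only regions, 0 in H3K56ac-only regions and 758 in shared regions. Counted by region, 1.12% of H3K27ac-only, 0% of H3K56ac-only and 5.88% of shared regions held a CBP peak, beside 2.74% of all merged regions. CBP peaks were short against the regions: with at least 25% of a region covered, the shares were 0.289%, 0% and 0.646%. The list holds exactly 1000 peaks and has no replicate, and whether it is a selection of the strongest peaks is not given in the sources used here, so a region without a CBP peak is not shown to lack CBP.

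In lists from Crebbp-/- LPD each class of a single mark was more often covered by that mark than by the other. H3K56ac of LPD was found at 27.6% and 30.3% of H3K27ac-only, 44.6% and 49.0% of H3K56ac-only and 90.2% and 91.2% of shared regions. H3K27ac of LPD was found at 49.9% and 34.0% of H3K27ac-only, 32.1% and 22.5% of H3K56ac-only and 92.4% and 88.5% of shared regions. For H3K18ac of LPD the shares were 52.2% and 37.6%, 47.4% and 32.9%, and 94.4% and 90.5% in the same order. Coverage of H3K27ac-only regions in LPD was thus not particular to H3K27ac. Of all merged regions, LPD lists had H3K56ac at 51.9% and 53.8%, H3K27ac at 63.0% and 52.9% and H3K18ac at 65.7% and 56.4%. Both classes of a single mark were thus below all regions even for their own mark, and shared regions were above them. In progenitors H3K27ac was found at 5.42% of H3K27ac-only, 18.5% of H3K56ac-only and 67.9% of shared regions when Crebbp was deleted, and at 11.4%, 24.1% and 79.4% in wild type, with 1 list per genotype. H3K27ac-only regions were lowest over all places, but not at gene ends in wild type, where 26.9% of H3K27ac-only, 22.2% of H3K56ac-only and 91.0% of shared regions had a peak. Of all merged regions 29.8% had a peak when Crebbp was deleted and 37.9% in wild type.

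**Figure D4:**
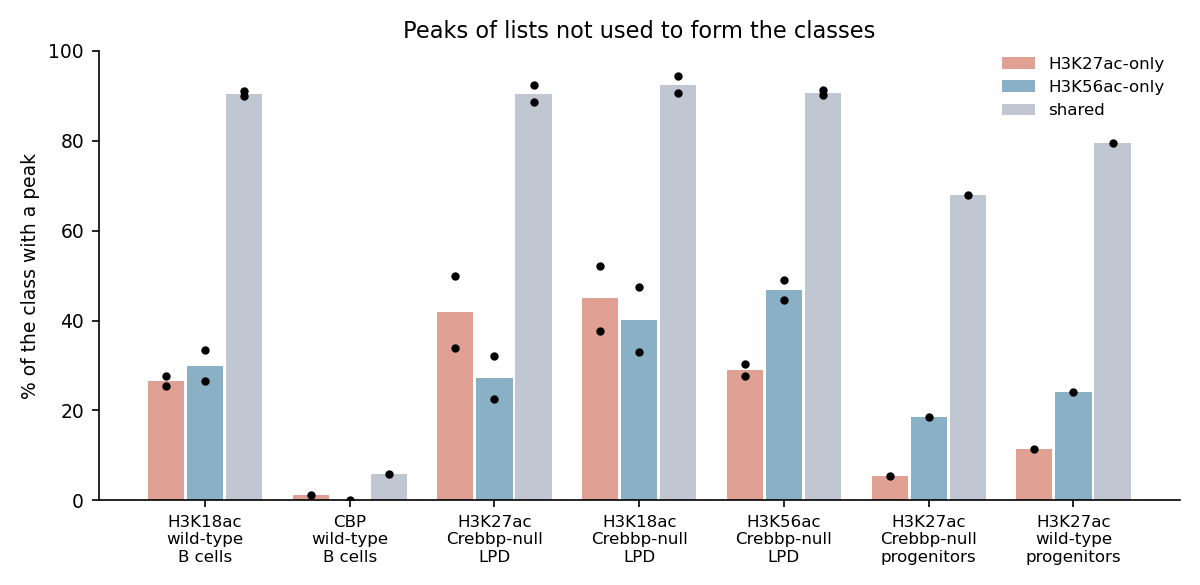
Share of H3K27ac-only, H3K56ac-only and shared regions (%, y axis) with a peak in lists that were not used to form the classes. Bars are means and points single lists; shared regions stand highest for each mark, at 89.9% and 91.0% for H3K18ac of the same B cells against 25.4% and 27.6% of H3K27ac-only regions.

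A region was given to all protein-coding genes it overlapped, each extended by 1 kb on either side, or failing that to the gene whose end was closest, up to 50 kb away. Of 21887 genes, 4219 (19.3%) had at least 1 H3K27ac-only region, 231 (1.06%) at least 1 H3K56ac-only region and 9133 (41.7%) at least 1 shared region. Of the genes with an H3K27ac-only region 74.2% also had a shared one, and 49.8% of those with an H3K56ac-only region did. H3K27ac-only regions were gathered at fewer genes: 454 genes had at least 5, against 0 genes for H3K56ac-only and 166 for shared regions. Long genes collect many regions under this assignment.

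The 10 genes with the most H3K27ac-only sequence included regulators of B cells. Foxp1, a forkhead transcription factor of B cell development, had 43 H3K27ac-only regions of 36.2 kb in sum, with 111 and 107 kb of H3K27ac and 25.5 and 23.0 kb of H3K56ac in replicates 1 and 2. Bach2, a repressor that restrains plasma cell differentiation, had 28 such regions, with 52.7 and 55.04 kb of H3K27ac and 8.71 and 6.84 kb of H3K56ac. Ets1, an ETS transcription factor, had 29, with 73.2 and 74.4 kb of H3K27ac and 18.9 and 15.5 kb of H3K56ac. At these loci H3K56ac was present but covered a small part of the H3K27ac. Bank1, a B cell scaffold protein, had 26.3 and 24.0 kb of H3K27ac and 1.76 and 1.39 kb of H3K56ac. Ebf1, a factor that sets B cell fate, Ubac2, Swap70, Rpia and Plekha2 were also among the 10. Foxp1, Ets1 and Ubac2 were also among the 10 genes with the most shared sequence, with Cyth1, Sgms1, Pik3ap1, Ago2, Inpp5d, Nfatc1 and Ly6e.

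Regions assigned to Rpia, a gene of the pentose phosphate pathway, include the widest H3K27ac-only region (chr6:70749684-70755194, 5511 bp) and another of the 5 widest (chr6:70733944-70738832, 4889 bp). The gene table lists immunoglobulin segments apart from protein-coding genes, and these regions lie 22.9 and 7.19 kb from Igkc, the constant gene of the kappa light chain (chr6:70726435-70726754). They were looked up after the values were seen. The wider one had 5370 and 5405 bp of H3K27ac and 0 bp of H3K56ac in either list. A region over Igkc itself (chr6:70722495-70728918) was shared, with 6081 and 6367 bp of H3K27ac and 3091 and 2866 bp of H3K56ac. Both classes thus alternated along the kappa locus. At the heavy chain, a region 2.572 kb from Ighm (chr12:113425302-113429648) was shared, with 4305 and 4345 bp of H3K27ac and 2889 and 2695 bp of H3K56ac.

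H3K56ac-only regions were small and scattered. The widest, 2164 bp (chr18:35653212-35655375), lay at Prob1 and had 1640 and 1943 bp of H3K56ac, and both H3K18ac lists had a peak in it. The next, 1216 bp (chr15:103365509-103366724), lay 67 bp from the start of Itga5, an integrin subunit of the fibronectin receptor, with 1100 and 685 bp of H3K56ac and no H3K18ac peak. Regions at Gdpd1 (763 and 777 bp of H3K56ac) and at Srms and Fndc11 (1 region, 934 and 451 bp) overlapped the promoter windows printed above. Tpmt and Kdm1b, neighbours with the same 2 regions, had 0.734 and 0.945 kb of H3K56ac and no H3K27ac peak. Plxnb2, Cers6 and Pak6 made up the rest of the 10 genes with the most H3K56ac-only sequence. Most of the H3K56ac lengths at these 10 genes were under 1 kb. Fndc11 also had a shared region at a start.

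The widest shared region, 25000 bp (chr17:34285282-34310281), reached from H2-Aa to H2-Eb1, which encode MHC class II chains. H3K27ac filled 24830 and 24999 bp of it and H3K56ac 20441 and 19916 bp. H3K56ac in it was broken into shorter peaks, since the widest H3K56ac peaks of the lists were 5082 and 4948 bp, against 23355 and 24999 bp for H3K27ac. A region of 19725 bp inside Ago2, a core protein of RNA silencing, had 19700 and 19518 bp of H3K27ac and 8539 and 7926 bp of H3K56ac. A region of 21550 bp on chromosome 8, 82.7 kb from the nearest gene end (chr8:11094126-11115675), had 21122 and 21226 bp of H3K27ac and 5024 and 4760 bp of H3K56ac. Among the widest regions H3K56ac was thus nearly as long as H3K27ac at MHC class II and much shorter elsewhere.

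Gene groups differed in how much of their H3K27ac was matched by H3K56ac. Summed once per region, H3K56ac length was 20.7% and 19.7% of H3K27ac length at 24 B cell identity genes and 22.9% and 19.8% at 16 genes of B cell receptor signalling. It was 20.4% and 17.1% at 10 homing and chemokine receptor genes and 21.2% and 18.6% at 11 genes of early B cell development. The last value leans on Ikzf1 (30.5 and 29.3 kb of H3K27ac) and Ikzf3 (16.3 and 16.5 kb), out of 50.3 and 49.0 kb. The median gene of early B cell development had 0 kb of either mark. All protein-coding genes together gave 39.6% and 36.3%. Among groups used by nearly every cell, the ratio was 55.4% and 52.8% for 30 cytosolic ribosomal protein genes and 51.1% and 45.3% for 20 proteasome genes, and 44.1% and 40.0% for 12 further housekeeping genes. Median H3K27ac length per gene was 9.41 and 8.96 kb for B cell identity and 14.0 and 13.6 kb for B cell receptor signalling. For all genes with a region it was 1.335 and 1.304 kb. Whether the ratio follows this length was not tested, and neither were the groups.

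The contrast was present at gene ends and away from them. At gene ends the ratio was 31.1% and 31.04% for B cell identity and 35.6% and 31.9% for B cell receptor signalling, beside 56.7% and 52.8% for all genes. Away from gene ends it was 17.2% and 15.9% for B cell identity and 19.9% and 16.8% for B cell receptor signalling, beside 25.9% and 23.1% for all genes. Ribosomal protein genes had 61.7% and 61.0% at gene ends and 35.3% and 26.9% away. The housekeeping group had 52.0% and 49.5% at gene ends, below all genes, and 34.9% and 29.7% away, above them. B cell identity and B cell receptor signalling were thus below all genes in both places and both pairs of lists. So were homing and chemokine receptor genes, with 27.9% and 21.1% at gene ends and 15.7% and 14.5% away. T and NK cell genes had 32.3% and 26.9% at gene ends, below all genes, and 37.8% and 26.5% away, above them. A low ratio at gene ends was thus not particular to B cell groups. The germinal centre group had 49.9% and 39.6% at gene ends, below all genes, and 30.5% and 29.1% away, above them. MHC class II genes had 63.4% and 60.6% at gene ends and 14.7% and 18.5% away, the widest split of the groups in the plot of gene groups. Their gene-end value leans on 1 region, from H2-Aa to H2-Eb1. It held 24830 and 24999 bp of the group's 64.4 and 62.7 kb of H3K27ac at gene ends. Of the 40.8 and 38.0 kb of H3K56ac there it held 20441 and 19916 bp. The ratio without this region was not computed.

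**Figure D5:**
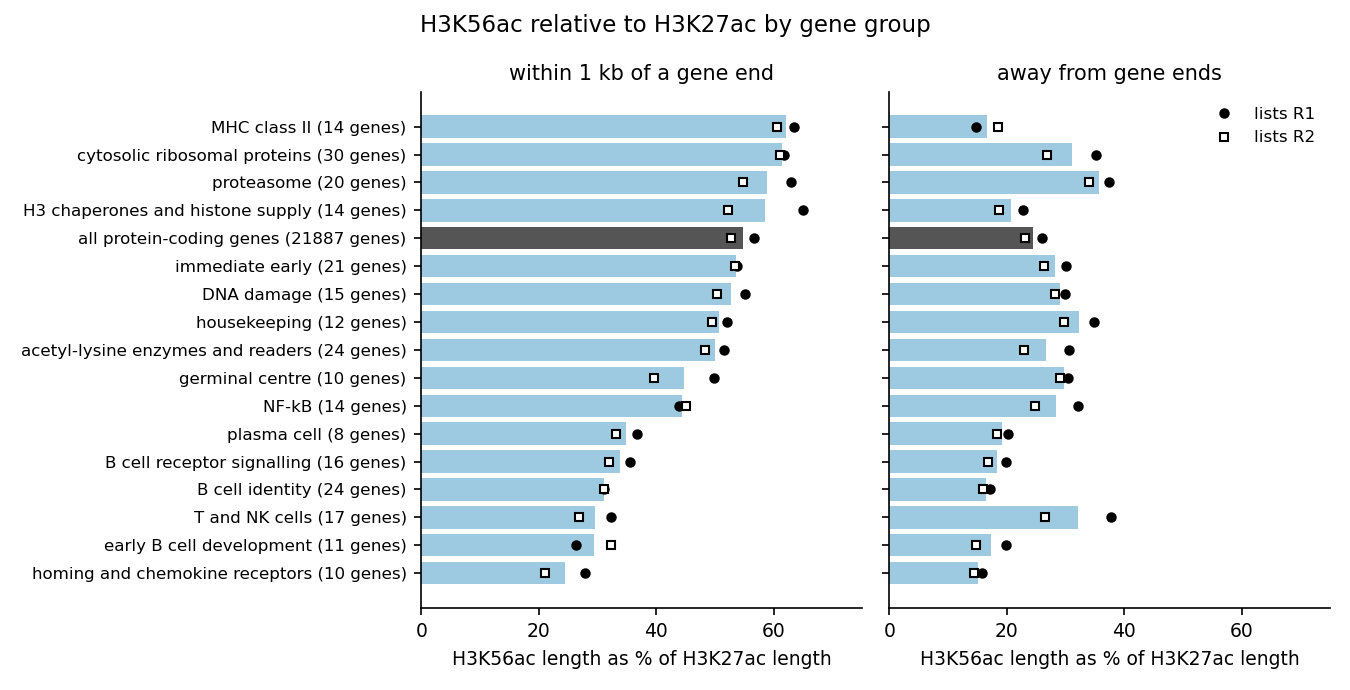
Summed H3K56ac length as a percentage of summed H3K27ac length (x axis) for gene groups, within 1 kb of a gene end (left) and away from gene ends (right). Bars are means of replicates 1 and 2, shown as circles and squares, for groups with at least 10 kb of H3K27ac in both places. B cell identity genes (31.1% and 31.04% at gene ends) lie below all protein-coding genes (56.7% and 52.8%).

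Of the B cell identity genes, 21 of 24 (87.5%) had an H3K27ac-only region, 1 had an H3K56ac-only region and 20 (83.3%) had a shared region. Of all genes 19.3%, 1.06% and 41.7% did, and of genes with any region 37.0%, 2.03% and 80.2% did. The shared count was thus near the share of genes with a region. Of the 17 with a start in the table, 5 (29.4%) had an H3K27ac-only start and 9 (52.9%) a shared start. Over all genes with a start the shares were 3.50% and 37.8%, and over those with any region 6.59% and 71.2%. Pax5, the factor that commits cells to the B lineage, had 23.4 and 23.4 kb of H3K27ac and 7.20 and 7.93 kb of H3K56ac, including 2 H3K56ac-only regions of 0.577 kb in sum. Ms4a1, which encodes CD20, had 5.65 and 5.48 kb of H3K27ac and 0.438 and 0.312 kb of H3K56ac. Cd79b, a signalling chain of the B cell receptor, had 4.37 and 4.67 kb of H3K27ac and 0 and 0.208 kb of H3K56ac. These 3 were picked for illustration after their values were seen. Ikzf1, the lymphoid factor Ikaros, had 30.5 and 29.3 kb of H3K27ac and 7.24 and 6.70 kb of H3K56ac. None of these genes reached in H3K56ac the length it had in H3K27ac.

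Among receptor signalling genes 15 of 16 (93.75%) had an H3K27ac-only region and 15 of 16 had a shared region. Of all genes 19.3% and 41.7% did, and of genes with any region 37.0% and 80.2% did. The shared count was thus nearer to the share of genes with a region than the H3K27ac-only count was. Syk, the kinase next to the receptor, had 24.7 and 23.2 kb of H3K27ac and 5.61 and 4.18 kb of H3K56ac. Prkcb, protein kinase C beta, had an H3K27ac-only start, with 28.2 and 27.7 kb of H3K27ac and 4.22 and 2.35 kb of H3K56ac. Among homing receptors Cxcr4 had 18.7 and 18.5 kb of H3K27ac and 4.34 and 3.28 kb of H3K56ac, and S1pr1, which guides exit from lymphoid organs, had 25.2 and 24.0 kb and 3.69 and 4.002 kb. The values of each gene differed little between the lists of a mark compared with the gap between marks.

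MHC class II genes had shared regions in 14 of 14 and H3K27ac-only regions in 12 of 14 (85.7%). Of all genes 41.7% and 19.3% did, and of the 11390 genes with any region 80.2% and 37.0% did. H2-Ab1 had 11.3 and 10.4 kb of H3K27ac and 8.42 and 8.28 kb of H3K56ac. Ciita, the coactivator that switches these genes on, went the other way, with 10.2 and 10.2 kb of H3K27ac and 0.325 and 0.697 kb of H3K56ac. Cd74, the invariant chain, had 14.3 and 14.4 kb of H3K27ac and 6.10 and 5.34 kb of H3K56ac. In MHC class I, H2-K1 had 1.10 and 0.822 kb of H3K27ac and no H3K56ac peak, and H2-D1 had 4.41 and 4.54 kb of H3K27ac and 0.255 and 0 kb of H3K56ac. B2m, their light chain, had 4.03 and 3.69 kb of H3K27ac and 2.53 and 1.73 kb of H3K56ac. H2-K1 and H2-D1 are close copies of each other and of further class I genes, so reads there may have been hard to place, and their values are uncertain.

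All 30 ribosomal protein genes had a shared region, and all 21 with a start in the table had a shared start. Of all genes 41.7% had a shared region, and of genes with any region 80.2% did, which also stand beside the counts for the next 3 groups. Rpl4 had 2.86 and 2.96 kb of H3K27ac and 2.27 and 2.04 kb of H3K56ac. Rps19 stood apart from it, with 2.51 and 2.93 kb of H3K27ac and 0.311 and 0.391 kb of H3K56ac. Of 15 DNA damage genes 14 had a shared region. Atr, the kinase of the replication checkpoint, had 2.05 and 2.09 kb of H3K27ac and 1.98 and 2.12 kb of H3K56ac, so the marks were of equal length there. Chek1, the kinase that Atr activates, had 0.578 and 0.664 kb of H3K27ac and no H3K56ac peak. Among 21 immediate early genes, which respond quickly to stimulation, 20 had a shared region; Fos had 19.2 and 17.7 kb of H3K27ac and 6.99 and 6.596 kb of H3K56ac. Of 14 NF-kB genes 14 had a shared region, and Nfkb1 had 14.8 and 15.1 kb of H3K27ac and 6.31 and 5.43 kb of H3K56ac.

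Most genes that handle histone H3 and acetyl-lysine had a shared region, and for acetyl-lysine enzymes and readers the shares were near those of all genes with a region. Crebbp had 1.76 and 1.82 kb of H3K27ac and 0.725 and 0.599 kb of H3K56ac, and Ep300, which encodes p300, had 3.88 and 4.03 kb and 1.75 and 1.75 kb. Both had a shared start. Of 24 genes for acetyl-lysine enzymes and readers, 21 (87.5%) had a shared region and 8 (33.3%) an H3K27ac-only region, beside 80.2% and 37.0% of all genes with a region. Asf1a, a chaperone that presents H3 for acetylation of lysine 56, had 1.498 and 1.55 kb of H3K27ac and 1.19 and 0.965 kb of H3K56ac. Its paralogue Asf1b had an H3K27ac-only start, with 1.06 and 0.875 kb of H3K27ac and 0.34 and 0 kb of H3K56ac. Chaf1b, a subunit of the chromatin assembly factor CAF-1, had 0.843 and 0.826 kb of H3K27ac and 0.965 and 0.886 kb of H3K56ac, so that H3K56ac was the longer mark in both pairs of lists. Sirt6, a deacetylase reported to act on lysine 56, had 1.28 and 1.16 kb of H3K27ac and 0.926 and 0.90 kb of H3K56ac.

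B cell markers carried both marks, and most of the defining markers of T and NK, myeloid and erythroid cells had no region. All 7 B cell markers had H3K27ac in both lists, with 62.0 and 62.2 kb in sum, and 6 of 7 had H3K56ac in both, with 12.4 and 13.6 kb. Of 7 T and NK cell markers Cd3d alone was given a region, with 2.17 and 2.17 kb of H3K27ac and 1.67 and 1.57 kb of H3K56ac. Cd3d had no region at its start. Cd3e, Cd3g, Cd4, Cd8a, Cd8b1 and Ncr1 were at 0 in all 4 lists. In the wider list of 17 T and NK genes 3 had an H3K27ac-only and 5 a shared region. Among them Cd2 had 16.7 and 17.8 kb of H3K27ac and 4.17 and 2.98 kb of H3K56ac, and Lck had 7.52 and 7.42 kb and 2.77 and 2.36 kb. Of 6 myeloid markers 2 had H3K27ac (3.32 and 3.55 kb in sum) and none had H3K56ac, with Lyz2, Csf1r, Mpo and Elane at 0. Those with H3K27ac, Itgam and Csf3r, had no region at the start. In the wider list of 12 myeloid genes 4 had an H3K27ac-only and 3 a shared region, namely Adgre1, Cebpb and Spi1, of which Spi1 is also used in B cells. Adgre1, which encodes the macrophage protein F4/80, had 4.50 and 4.38 kb of H3K27ac and 1.57 and 1.22 kb of H3K56ac. Of 4 plasma cell markers 3 had both marks, and Jchain was at 0. Of 5 erythroid and megakaryocyte markers Klf1 alone had a region. Siglech and Tcf4, markers of plasmacytoid dendritic cells, of which Tcf4 is also used in B cells, had 13.8 and 13.0 kb of H3K27ac and 3.64 and 2.25 kb of H3K56ac in sum. Their part in the classes was not tested. The 14 non-blood control genes had no region of either mark.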

How the data were processed

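ChIP-seq for H3K27ac and H3K56ac in sorted wild-type B cells was analysed from 4 deposited peak lists. The authors' tools, per the submitters' processing notes, were Bowtie2 2.1.0, bedtools, MACS2 2.0.10 and Picard, and the build was mm10. Their settings are not given in the sources used here. Each deposited file holds only chromosome, start and end of peaks called per library, so that positions are the authors' only values, with no height or p-value, and read depth is unknown. The input and the RNA-seq samples, 15 in all, were not used here, and the number of per-sample value columns left unused was 0.

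Peaks were merged, and an overlap of 1 bp with a peak put a region in a list. Gene spans and promoter windows came from RefSeq tables of GRCm38.p6, with 21887 protein-coding genes, of which 17492 had a start in the promoter table. That table holds no window on chromosome 18, which was left out of shares at gene starts. All 335 entries of 22 gene lists matched. Lists of each mark were compared by a two-sided exact permutation test, whose smallest p is 0.333, and the rest is description. Named genes were Crebbp, Ep300, the genes of the histone H3 and acetyl-lysine lists, per class the 10 genes with the most sequence and those at the 5 widest regions, and per list up to 4 members with the most sequence of a class. Same-numbered lists of unlike marks overlapped by 35.8% and 33.3% and unlike-numbered lists by 32.8% and 36.4%. The higher values, 35.8% and 36.4%, were those with H3K56ac replicate 1, the longer H3K56ac list. These overlaps thus cannot tell whether the replicate numbers pair the samples, and the labels used here do not say. Class building and overlaps were tested on simulated lists. Python 3.11.15, NumPy 2.4.6, pandas 2.3.3, SciPy 1.17.1 and Matplotlib 3.10.9 were used. Some genes that the naming rule selects are not reported here. The members and the gene lists were chosen with earlier results of these data known.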

Additional observations from a re-analysis of the deposited data

How the results depend on the processing

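The direction of the 4 comparisons between lists held when any list was left out and with peaks of at least 400 bp. The log2 difference in peak number ranged from 0.57 to 0.69, in covered length from 1.34 to 1.504 and in median width from 0.47 to 0.50, and the difference in gene-end share from -15.9 to -14.0 points. No p fell below 0.333, the smallest possible. With replicate numbers as a block the differences were 0.63, 1.42, 0.48 and -15.0 points (exact sign-flip p = 0.5, the smallest possible). Classes formed within same-numbered pairs, the form of the block for counts, averaged 16212 H3K27ac-only, 1013 H3K56ac-only and 14058 shared regions. Whether the numbers pair the lists is not known.

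Class sizes and widths depended on list length and on the merge, and the causes were not tested beyond what each alternative does by construction. With lists of equal length H3K27ac-only regions numbered 3958, with a median of 879 bp and 15.6% at gene ends. H3K56ac-only regions then numbered 1101, with 61.7% at gene ends, and the shared median was 1299 bp. With peaks of at least 400 bp H3K56ac-only regions numbered 67 and shared regions 7109. The median widths were then 861 bp, 547 bp and 1398 bp for H3K27ac-only, H3K56ac-only and shared regions, and the gene-end shares 25.6%, 65.7% and 68.8%. Merging peaks up to 1 kb apart gave 4297 H3K27ac-only regions and medians of 895 bp, 442.5 bp and 1548 bp. A gene-end window of 500 bp gave 14.5%, 39.4% and 60.0%, one of 2 kb gave 23.3% and 65.7% for H3K27ac-only and shared regions, and gene starts alone gave 14.4% and 57.3% for these. Leaving out 1 list at a time gave 10718 to 14702 H3K27ac-only, 322 to 943 H3K56ac-only and 12357 to 13983 shared regions. Gene-end shares then ran from 16.2% to 20.6%, from 35.0% to 47.7% and from 59.0% to 62.5%, and medians from 362 to 548 bp, 250 to 388 bp and 1048 to 1117 bp. H3K56ac-only regions had medians of 252 bp without H3K56ac replicate 1 and 250 bp without replicate 2. Counting a list only where it covers 25% of a region moved the mean H3K18ac share to 23.1% of H3K27ac-only and 85.8% of shared regions. Gene-end shares were not recomputed with the 1 kb merge or the 25% coverage. In the other settings, gene-end shares of H3K27ac-only regions were below those of the other classes. At 25% coverage a CBP peak stood at 0.289% of H3K27ac-only, 0% of H3K56ac-only and 0.646% of shared regions. Without chromosome X, 74.9% in place of 73.7% of H3K27ac regions at gene ends were shared, an alternative added after seeing the data. With unknown read depth, no limit of detection can be given.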

Other observations

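Chromosome X held little H3K56ac for its H3K27ac, a comparison chosen after the values were seen. The H3K27ac lists had 683 and 654 peaks on X (2.24% and 2.17% of all) and the H3K56ac lists 256 and 228 (1.26% and 1.22%). Of 312 regions at gene ends on X in both H3K27ac lists, 37.8% were shared, against 69.2% to 83.5% on each of the 19 autosomes. Of 252 regions away from gene ends on X 15.9% were shared, against 28.8% to 36.5% on the autosomes. Median H3K27ac length at X gene ends was 608.5 bp, against 741.5 to 917 bp on autosomes. Among gene-end regions above 600 bp, H3K56ac replicates 1 and 2 had a peak at 70.1% and 65.0% on X and at 92.5% and 90.7% on autosomes, so X stood lower at like length too. X held 326 H3K27ac-only regions (3.36%), 0 of the 249 H3K56ac-only regions and 158 shared regions (1.31%). H3K18ac of the same cells had 1.82% and 1.82% of its peaks on X, between the other marks. The labels used here do not give the sex of the mice, and no cause was tested.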
